A study of Homo sapiens with 7 samples.

Results

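PKM, the gene of the pyruvate kinase of muscle and of dividing cells, was followed isoform by isoform in full-length reads of the human embryonic stem cell line HUES66. Its members are all isoform rows assigned to PKM by gene ID: 356 of the 386982 isoform rows, belonging to 1 of 14294 genes. The study directed Cas13d, an RNA-guided nuclease that cuts RNA, at isoforms of RBFOX2, a gene for a splicing regulator. It sequenced polyadenylated RNA as joined cDNA (MAS-Seq on the PacBio Revio system).

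There were 7 libraries, of 16801851 (control) to 26678536 (G12) reads, and each group held 1. The control carried the genotype label WT. The other libraries carried a label for knockdown of an RBFOX2 isoform and are called the G libraries by their label: G3 (RBFOX2 id 178147), G5 (178149), G11 (178136), G12 (178135), G13 (178145) and G14 (178146). Doxycycline at 1 µg/ml had been given to all 7 cultures, the control included, with a labelled time point of 24 h, and all were labelled piggyBac, the transposon vector system used to insert DNA. The labels do not say whether the control cells carried Cas13d or a guide, nor which isoform an id stands for. Where values of the G libraries follow without a name, they stand in the order just given. Since no group had a replicate, no difference given here has a p-value, and 95% intervals cover counting error only.

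Pyruvate kinase makes pyruvate and ATP from phosphoenolpyruvate, the last step of glycolysis. PKM encodes the forms PKM1 and PKM2, which differ in a pair of neighbouring, mutually exclusive exons. PKM1 is known from adult muscle and brain, PKM2 from embryonic, proliferating and tumour cells. The proteins PTBP1, HNRNPA1 and HNRNPA2B1 are known to repress the PKM1 exon.

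PKM is read from the minus strand of chromosome 15, chr15:72199029-72231822 (GRCh38, GENCODE 29). Both exons of the pair are coding exons of 167 bases: the PKM1 exon at chr15:72203022-72203188 and, 401 bases of intron further 3′, the PKM2 exon at chr15:72202454-72202620. The PKM2 exon is exon 9 of the 11 exons of the annotated PKM2 transcript. Their sequences are shown because every isoform share below rests on telling them apart. They are read 5′ to 3′ on the transcript strand from GENCODE 29 transcripts, and capitals mark the positions at which the exons differ.
PKM1 exon: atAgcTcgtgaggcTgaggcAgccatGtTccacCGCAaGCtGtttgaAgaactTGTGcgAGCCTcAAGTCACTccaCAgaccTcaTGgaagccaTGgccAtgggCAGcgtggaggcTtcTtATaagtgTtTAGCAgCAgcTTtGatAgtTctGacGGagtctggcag
PKM2 exon: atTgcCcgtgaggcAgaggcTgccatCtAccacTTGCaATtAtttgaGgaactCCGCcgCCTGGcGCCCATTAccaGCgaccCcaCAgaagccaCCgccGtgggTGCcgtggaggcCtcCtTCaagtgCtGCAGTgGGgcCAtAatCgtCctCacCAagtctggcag

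Bases were identical at 105 of 167 positions (62.9%), and the longest identical stretch was the last 10 bases. A full-length read through the pair therefore met 62 positions at which the exons differ. GC content was 53.3% in the PKM1 exon and 61.1% in the PKM2 exon. The last 15 bases of exon 8 are followed by 15 bases of either exon, here in capitals.
Junction to the PKM1 exon: cgcatgcagcacctgATAGCTCGTGAGGCT
Junction to the PKM2 exon: cgcatgcagcacctgATTGCCCGTGAGGCA

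GCATG, the motif bound by RBFOX proteins, TAGGG, bound by HNRNPA1, and CTCTCT, bound by PTBP1, were each searched on both strands of the exons of the pair, and none had a match in either exon. Of 46441 internal exons of coding transcripts, cut to the same 167 bases, 14.3% held GCATG, 3.03% TAGGG and 4.79% CTCTCT on the transcript strand (15%, 9.32% and 6.56% on the other strand). Exon 8, which both forms share, was looked at after these values were seen. It holds GCATG on the transcript strand at positions 11 and 140 of its 153 bases, the latter in the junction lines above. On the other strand exon 8 also has 2 matches of GCATG, and TAGGG and CTCTCT have none on either strand. A window of 153 bases held GCATG in 13.5% of 58909 internal exons on the transcript strand and in 14.2% on the other. The introns beside the pair were not searched.

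PKM was among the most abundant genes of these cells. On the deposited TPM scale, which is reads scaled to the library total without a length term, its mean was 4500.2 ± 523 (SD over the 7 libraries), rank 9 of 14294 genes. The control held 67685 PKM reads (4028 TPM). G5 held 129451 reads (5086 TPM), G14 105168 (5021 TPM), G11 99561 (4779 TPM) and G3 84356 (4726 TPM). G12 held 107685 reads from a deeper library (4036 TPM) and G13 87164 (3824 TPM). G5 was the highest and G13 the lowest, with the control and G12 close to G13.

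As a percent of the control level, PKM in G5 was 126% (interval 125 to 127), in G14 125% (123 to 126), in G11 119% (117 to 119.8) and in G3 117% (116 to 119). G12 stood at 100.2% (99.2 to 101) and G13 at 94.9% (94.0 to 95.9). None of these reached 1.5-fold. Of 7877 genes with a mean of at least 5 TPM, that fold was reached in either direction by 21.0%, 20.9%, 29.0%, 27.7%, 35.9% and 46.4%. The log2 ratios of PKM were 0.23, 0.34, 0.25, 0.00, -0.08 and 0.32, beside medians over those genes of 0.12, 0.14, -0.04, -0.16, -0.21 and -0.10. PKM stood above the median gene in each G library, with 58.9% (G13) to 73.5% (G5) of genes at a lower ratio. The sign in G13 turned with the scaling: the log2 ratio was 0.08 with median-of-ratios scaling and 0.49 with a trend on transcript length and GC content removed. Over the 7 libraries the PKM level spanned 0.411 on the log2 scale, against a median of 0.843 over the same 7877 genes. Counting error widens the span more in genes with fewer reads than PKM, and this was not corrected for.

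**Figure D1:**
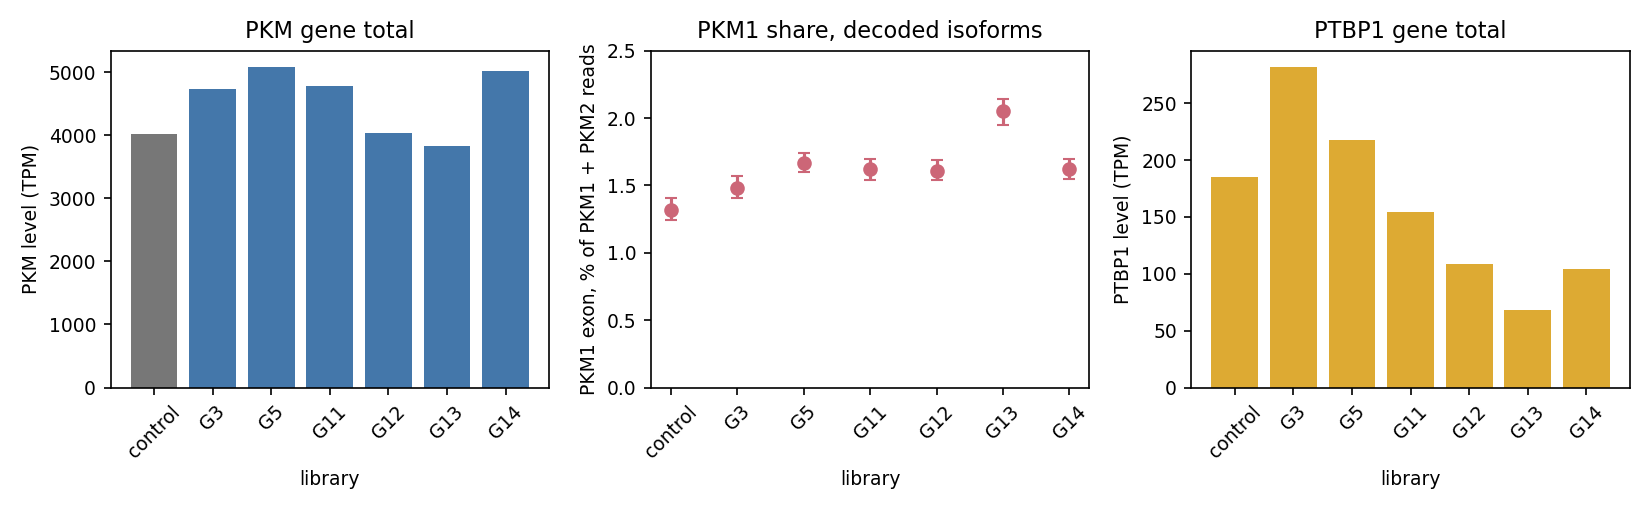
The bars on the left give the PKM level per library in TPM, from 3824 in G13 to 5086 in G5. The points in the middle give the PKM1 exon as a percent of PKM1 and PKM2 reads with 95% Wilson intervals, from 1.32% in the control to 2.05% in G13, and the bars on the right give the level of PTBP1 in TPM.

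Almost all PKM RNA was PKM2. The reference transcript ENST00000335181.10, the PKM2 form, held 64350 control reads, or 95.1% of the gene, and between 94.4% (G13) and 95.3% (G3) in the G libraries. The reference PKM1 transcript, ENST00000565184.6, held 11 reads in the control and 6, 12, 2, 5, 9 and 6 in the G libraries. By these reference IDs alone, PKM1 was 0.0171% of PKM1 and PKM2 reads in the control (interval 0.00954 to 0.0306) and 0.00212% (G11) to 0.0109% (G13) in the G libraries. The sole other reference ID, ENST00000698741.1, held 10 to 25 reads per library, is not in GENCODE 29 and was not placed.

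The other 353 isoforms had hashed IDs, which name no transcript. They held 4.90% of PKM reads in the control and 4.71%, 4.94%, 5.35%, 5.14%, 5.53% and 5.15% in the G libraries. Every listed isoform has a control read, and 137 of the 356 PKM isoforms have 1 control read and none in any G library. Such isoforms add to the control share alone. Among isoforms with a mean of at least 1 TPM the control was the lowest, at 4.02%, against 4.42% (G3) to 5.00% (G13). The hashed IDs were read as hashes of the internal splice sites, one number for the exon starts and another for the exon ends. Searching combinations of GENCODE 29 sites with at most 1 unannotated site per number gave a single solution for 540 of 556 distinct numbers. That placed 341 of the 353 hashed isoforms, with 99.6% to 99.9% of hashed reads per library. As a check, 12775 numbers of 20 other genes were searched with the PKM sites, and 0 were solved. In what follows hashed isoforms are numbered by their mean share of PKM reads over the libraries.

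With the decoded isoforms counted, the PKM1 exon was far more common than its reference ID showed. Hashed isoform 1 carries the PKM1 exon between otherwise unchanged PKM2 exons, including the first exon ending at 72231116. No GENCODE 29 transcript of PKM (0 of 25) joins that first exon edge to the PKM1 exon. Isoform 1 had 850 reads in the control and 1209, 2089, 1565, 1684, 1724 and 1644 in the G libraries. It held 96.9% of all PKM1 reads, and hashed isoforms together held 99.5% of them (11058 reads, against 51 on the reference ID).

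The PKM1 share of the control was 1.32% (interval 1.24 to 1.41). That of G13 was 2.05% (1.95 to 2.14), of G5 1.67% (1.60 to 1.74), of G11 1.62% (1.54 to 1.70), of G14 1.62% (1.55 to 1.70), of G12 1.61% (1.54 to 1.69) and of G3 1.48% (1.41 to 1.57). The control was the lowest and G13 the highest. The intervals of G5, G11, G12 and G14 overlap, and those of G3 and the control touch. As a percent of the control share, G13 had 155% (143 to 168), G5 127% (117 to 137) and G3 113% (103 to 123), with G11, G12 and G14 at 122% to 123%.

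In TPM, PKM1 was 52.8 in the control and 69.9, 84.6, 77.2, 64.8, 78.0 and 81.4 in the G libraries. PKM2 was 3951 in the control and 4639.6, 4986, 4688, 3959, 3734 and 4928. PKM1 was above the control level in all 6 G libraries, also with median-of-ratios scaling (log2 ratios 0.38, 0.64, 0.59, 0.43, 0.72 and 0.73). PKM2 in G13 was below it by the deposited TPM (log2 ratio -0.08) and above it with that scaling (0.08). All 6 share the single control library, so a value of that library alone enters each ratio.

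The share of isoform 1 within PKM was read beside 223 isoforms of other and the same genes with a mean share of 0.5% to 5%, a mean of at least 20 TPM and reads in all 7 libraries. It passed a 1.2-fold rise in G5, G11, G12, G13 and G14, a rise that 11.2%, 28.7%, 35.0%, 36.8% and 39.5% of those isoforms also passed. In G3 it did not pass, and 11.2% of isoforms did. A higher share than the control in all 6 G libraries was seen for 17.9% of the 223. The isoform 1 ratio exceeded that of 92.8% of them in G5, 83.9% in G3, 74.9% in G11 and G13, 66.8% in G12 and 63.7% in G14. The median isoform of this set stood at 98.7%, 98.1%, 106%, 107%, 106% and 109% of its control share.

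**Figure D2:**
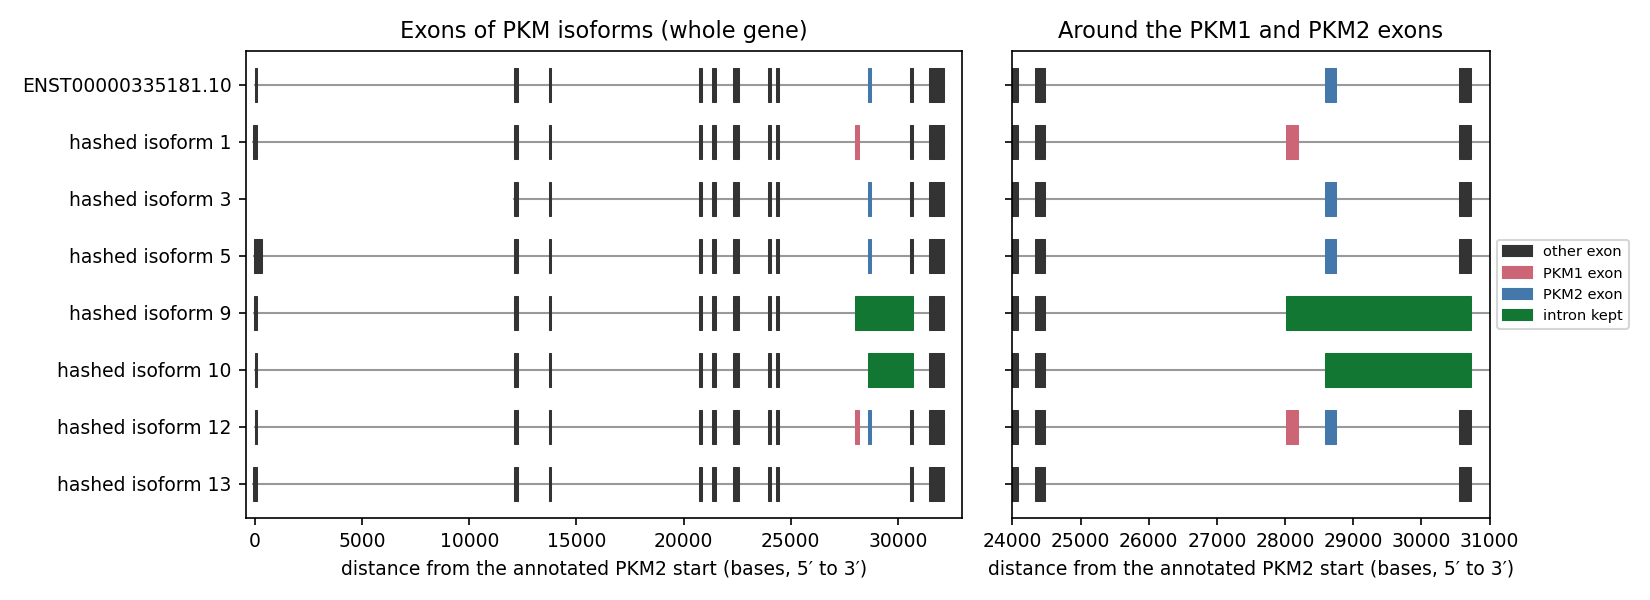
Exons of the PKM2 reference isoform and of 7 hashed isoforms are drawn to scale by distance in bases from the annotated PKM2 start, the whole gene on the left and the exon pair on the right. Isoform 1 has the PKM1 exon (red) in place of the PKM2 exon (blue), isoform 12 has both, isoform 13 neither, and isoforms 9 and 10 run through 1798 bases of intron (green).

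The remaining hashed isoforms each averaged under 1% of PKM and are described because of what they show of the gene's structure; they were chosen after their values were seen. Isoforms 2 and 4 hold all PKM2 exons and differ from the reference only at the 3′ edge of exon 6, which the annotated PKM2 transcript puts at 72208621. The edge is 1 base short in isoform 2 (72208622) and 1 base long in isoform 4 (72208620). The end of exon 6 and the 4 bases after it, in capitals, are shown because those bases open with GC in place of the usual GT of an intron.
Edge of exon 6: aatcatgagggggttcggagGCAA

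Isoform 2 held 0.959% of PKM reads in the control and 0.682%, 0.796%, 0.932%, 0.985%, 0.706% and 0.882% in the G libraries. G3 and G13 were the lowest, at 71.1% (63.4 to 79.7) and 73.6% (65.8 to 82.3) of the control share, with G5 at 83.1% (75.2 to 91.8). A share at least 1.2-fold lower was seen for 19.3% of the 223 isoforms in G3, 11.7% in G5 and 11.2% in G13. Isoform 4 held 0.217% in the control and 0.532%, 0.514%, 0.588%, 0.369%, 0.450% and 0.535% in the G libraries. All 6 G libraries were above the control, at 169.8% (140.1 to 207) in G12 up to 271% (225 to 326) in G11. Isoform 4, and isoform 6 described next, have mean shares of 0.458% and 0.162%. Both lie under the 0.5% minimum of the 223 isoforms, so no background is given for them. All 6 ratios of each share the single control library.

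Isoform 6, whose exon 7 runs 4 bases further to 72207123, was also lowest in the control, with 0.0842% there and 0.136% (G12) to 0.225% (G11) in the G libraries. These edges lie within a few bases of annotated ones, where the placing of an alignment gap and a real splice site cannot be told apart in these files. Isoforms with an edge within 10 bases of an annotated one (50 isoforms) together held 1.43% of control reads and 1.48% (G13) to 1.93% (G11) in the G libraries.

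At the 5′ end, 99.0% (G13) to 99.4% (control and G3) of PKM reads belonged to isoforms listed as beginning near an annotated start of a coding transcript (within 100 bases). Isoforms with the inner edge of the first exon of the PKM2 chain, chr15:72231116-72231206, held 98.3% to 98.7% of reads. Isoform 5 uses the annotated first exon edge 72230896, and its share was between 0.379% (G13) and 0.482% (G3), with 0.471% in the control.

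Isoform 3 begins at the second exon (5′ end 72219112) and otherwise has the PKM2 exons. Its reads were 398 in the control and 495, 860, 762, 927, 869 and 916 in the G libraries, or 0.588%, 0.587%, 0.664%, 0.765%, 0.861%, 0.997% and 0.871% of PKM with the control first. G3 was within counting error of the control, and the other G libraries were higher, up to 169.5% of the control share in G13 (150.4 to 191). Among the 223 isoforms above, the 1.2-fold rise that isoform 3 passed in G11, G12, G13 and G14 has the background given there. All isoforms that begin at or beyond the second exon (5 of them) took 0.603% of reads in the control and 0.606%, 0.684%, 0.781%, 0.881%, 1.02% and 0.900% in the G libraries. A start inside a gene can be a truncated cDNA or a real start, which cannot be told apart here.

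Sorted by the exon pair, 177 isoforms carried the PKM2 exon, 16 the PKM1 exon, 1 both, 109 neither, 32 an altered edge of the pair and 8 an intron kept beside it; 13 were not placed. The PKM2 exon class held 98.1% of PKM reads in the control and 97.6% (G13) to 98.2% (G3 and G14) in the G libraries. That class leaves out isoforms with both exons or with an intron kept beside the pair. Isoform 12, with both exons, had 19 reads in the control and 28, 47, 33, 48, 28 and 31 in the G libraries. That is 0.0281% of control reads and 0.0295% to 0.0446% in the G libraries, with every ratio interval spanning 100%. No GENCODE 29 PKM transcript holds both exons.

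Reads with neither exon were spread over many isoforms, and their share in the control exceeded that in each G library. Every row of the table has at least 1 control read, and 234 of the 356 PKM isoforms have exactly 1; of those, 137 have no read in any G library. The share with neither exon was 0.321% in the control and 0.0640% (G3) to 0.173% (G13) in the G libraries, and 72 of its 109 isoforms had 1 control read. Among the 16 isoforms with at least 12 reads over the G libraries the share was 0.143% in the control, and the G libraries had 39.9%, 39.0%, 56.4%, 75.0%, 87.0% and 56.0% of it. The interval for G13 spanned 100% (65.5 to 116) and the other 5 lay below it. Isoform 13, a plain skip of the pair from exon 8 to exon 10, had 26 control reads and 34, 37, 21, 39, 22 and 38 in the G libraries. Its interval of the ratio to the control spanned 100% in each G library.

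Reads that keep an intron beside the pair were less common in 4 of the G libraries than in the control, and most so in G13. Isoforms 9 and 10 keep the 1798 bases of intron between the PKM2 exon and exon 10 (chr15:72200656-72202453), and isoform 9 also keeps the intron between the exons of the pair. Isoform 9 had 39 reads in the control and 80, 77, 26, 24, 5 and 17 in the G libraries. Isoform 10 had 45 in the control and 65, 76, 21, 21, 4 and 11. Both were high in the control, G3 and G5 and low in the other 4 libraries. Isoforms 9 and 10 are longer than the PKM2 transcript by the intron they keep. The trend on length and GC content was removed from gene levels only, and its bearing on these shares was not tested.

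The 8 isoforms of this class together had 93 reads in the control, which is 0.137% of its PKM reads (interval 0.112 to 0.168). The G libraries had 157, 168, 58, 47, 13 and 31 reads, or 0.186%, 0.130%, 0.0583%, 0.0436%, 0.0149% and 0.0295%. As a percent of the control share, G3 had 135% (104 to 177) and G5 94.5% (72.9 to 123). G11 had 42.4% (30.0 to 59.5), G12 31.8% (21.9 to 45.6), G14 21.5% (13.8 to 32.5) and G13 10.9% (5.57 to 19.5). The intervals of G11, G12, G13 and G14 lie below those of G3 and G5. Counting only isoforms with at least 12 reads over the G libraries left 3 isoforms and gave 146%, 101%, 43.8%, 34.6%, 10.9% and 21.9%. Over all genes, the 41 listed reference isoforms that GENCODE 29 types as retained intron held 0.00388% of reads in the control and 0.00401% (G3) to 0.00458% (G12) in the G libraries. Those 41 were not lower in the G libraries. The 8 PKM isoforms all have hashed IDs, which that count leaves out, so it is no background for them. RNA still in the nucleus and RNA processed in error cannot be told apart in these reads.

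**Figure D3:**
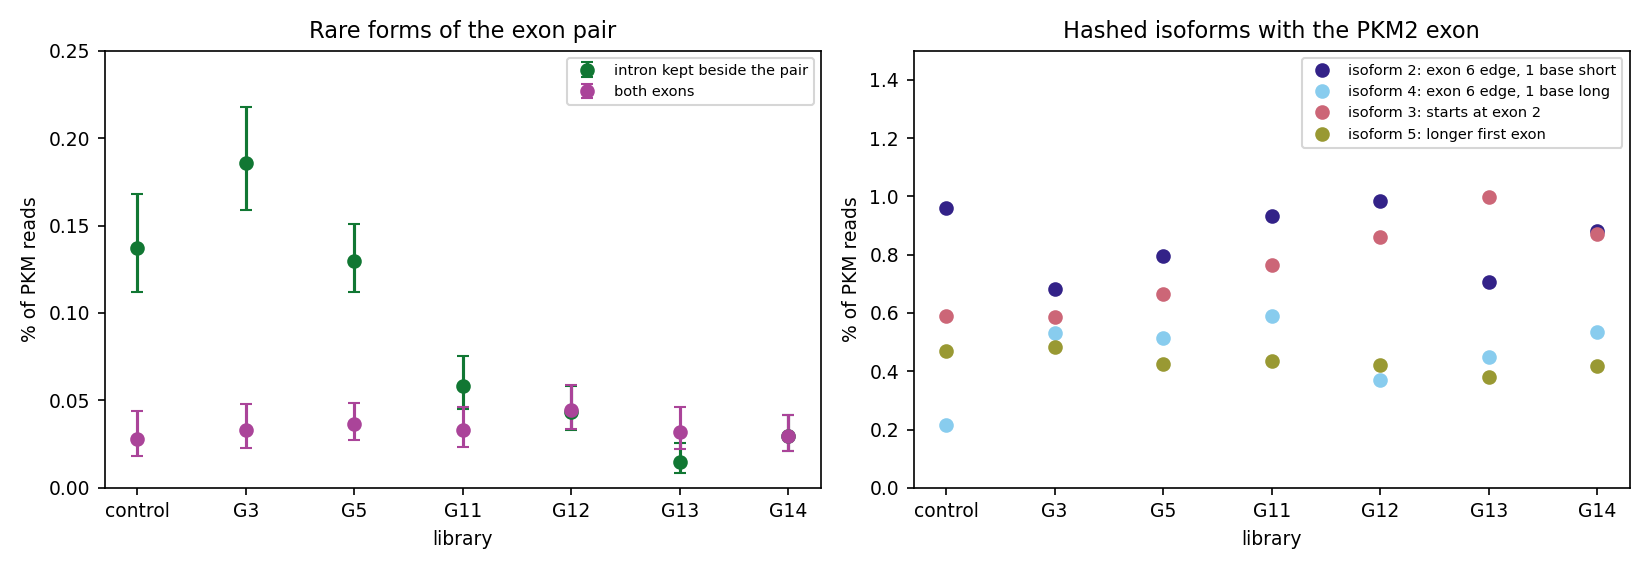
The left panel gives the percent of PKM reads per library that keep an intron beside the pair (green) or carry both exons (purple), with 95% Wilson intervals; retention is 0.137% in the control, 0.186% in G3 and 0.0149% in G13. The right panel gives the shares of isoforms 2, 3, 4 and 5, of which isoform 4 is 0.217% in the control and at least 0.369% in each G library.

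Over all isoforms, the PKM mix moved little. The usage distance from the control, which is 0 for equal shares and 1 for no shared isoform, was 0.00976, 0.00900, 0.0118, 0.00970, 0.0166 and 0.0113. The medians over 2061 genes with a mean of at least 100 TPM were 0.0261 (G5) to 0.0327 (G14). G13 was the farthest from the control in PKM, yet 27.9% of genes had a smaller distance there. Counting error adds to the distance, more so in genes with fewer reads than PKM, and this was not corrected for.

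The regulators of the exon pair were counted from a list of 10 genes, all above 5 TPM, which also holds the targeted gene RBFOX2. PTBP1, the repressor of the PKM1 exon, had 185 TPM in the control and 282, 218, 154, 109, 67.9 and 104 in the G libraries. G13 had the lowest PTBP1 level and the highest PKM1 share, while G3, with more PTBP1 than the control, also had a PKM1 share above it. The log2 ratios of PTBP1 were 0.61, 0.24, -0.26, -0.76, -1.44 and -0.82. After removal of the trend on length and GC they were 0.18, 0.09, 0.06, -0.15, -0.36 and -0.25, so the sign in G11 turned and the size in the others shrank. Its paralogue PTBP3 had log2 ratios of 0.12, -0.11, -0.48, -0.97, -0.91 and -0.55. What the level of PTBP1 has to do with the PKM1 share was not tested.

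HNRNPA1 differed least among the regulators, with 572 TPM in the control and 591 (G12) to 686 (G14) in the G libraries. Its log2 ratios of 0.05 to 0.26 turned slightly negative in G5, G11 and G12 with the trend removed. HNRNPA2B1 was 1601 TPM in the control and between 1168 (G13) and 1821 (G5). SRSF3, a splicing factor that favours the PKM2 exon, was 918 TPM in the control and between 762 (G12) and 1056 (G5). RBM4, which favours the PKM1 exon, was 196 TPM in the control and between 122 (G14) and 202 (G3).

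KHDRBS1, the RNA-binding protein Sam68, spread the most, with 45.4 TPM in the control and 127, 30.8, 18.2, 11.6, 12.9 and 42.8 in the G libraries. NEK2, a mitotic kinase linked to PKM2 splicing, was 62.7 TPM in the control and higher in every G library, from 70.4 (G3) to 144 (G14); 21.1% of the 7877 genes were higher in all 6. RBFOX2, the targeted gene, was 107 TPM in the control and 42.1, 96.8, 82.9, 88.5, 55.9 and 106 in the G libraries. PKM1 shares in G3 and G13, the libraries with the least RBFOX2, were the lowest and the highest among the G libraries. Whether the RBFOX2 level bears on the PKM1 share was not tested.

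Of the 10 regulators, those at least 1.5-fold higher were 2, 0, 1, 1, 1 and 1 by library, and those lower were 1, 0, 1, 4, 5 and 2. These counts include RBFOX2, the target of the knockdown itself. It was the only one lower in G3 and is among the 5 lower in G13. After trend removal the counts were 1, 0, 0, 1, 1 and 1 higher and 1, 1, 2, 2, 5 and 3 lower. The shares of all genes with the trend removed were 5.03%, 3.21%, 8.39%, 9.46%, 14.3% and 17.1% higher. Those lower were 6.51%, 8.45%, 10.9%, 10.3%, 13.8% and 17.7%. By the deposited TPM, all genes reached that fold upwards in 8.71%, 3.71%, 6.53%, 5.08%, 6.86% and 15.5% and downwards in 12.3%, 17.2%, 22.5%, 22.6%, 29.1% and 31.0% of cases. The list medians were 0.12, 0.12, -0.23, -0.40, -0.53 and -0.15, beside the all-gene medians given for PKM.

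Of the genes of glycolysis, 18 enzymes and transporters were listed, and all passed 5 TPM. Those at least 1.5-fold higher numbered 2, 0, 1, 1, 1 and 2 by library, and those lower 1, 3, 3, 4, 6 and 3, with the all-gene shares as for the regulators. After removal of the trend on length and GC the higher ones numbered 0, 0, 1, 3, 5 and 5 and the lower ones 1, 3, 1, 0, 1 and 2, so the balance turned in G12, G13 and G14. The shares of all genes were then 5.03%, 3.21%, 8.39%, 9.46%, 14.3% and 17.1% higher and 6.51%, 8.45%, 10.9%, 10.3%, 13.8% and 17.7% lower. The list medians were 0.12, 0.19, -0.10, -0.10, -0.20 and -0.13, against 0.12, 0.14, -0.04, -0.16, -0.21 and -0.10 over all genes.

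GAPDH, which oxidises glyceraldehyde 3-phosphate, was 3438 TPM in the control and 3214, 1606, 1373, 1745, 1692 and 966 in the G libraries. It was at least 1.5-fold below the control in 5 of 6 G libraries, and in 3 of 6 after trend removal, where its log2 ratios in G12 and G13 were -0.56 and -0.41. TPI1, triose phosphate isomerase, was 5846 TPM in the control and 2416 (G14) to 4235 (G12) in the G libraries, though its log2 ratio in G13 was -0.02 with the trend removed.

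ENO1, the enolase that makes the substrate of pyruvate kinase, was 3821 TPM in the control and 4017 (G3) to 5642 (G14) in the G libraries. LDHA, which reduces pyruvate to lactate, was 1012 TPM in the control and 883 (G13) to 1377 (G3). The glucose transporter SLC2A1 was 414 TPM in the control, 418 in G3 and 589 (G5) to 964 (G14) in the others. PFKL, a subunit of phosphofructokinase, was 135 TPM in the control and 46.5 in G13, where its log2 ratio of -1.53 became 0.04 with the trend removed.

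MYC, a transcription factor that drives glycolytic genes, was 121 TPM in the control and 95.8 (G13) to 157 (G3) in the G libraries. HIF1A, the oxygen-regulated factor, was 99.5 TPM in the control and 93.1 (G12) to 129 (G5). MYCN stayed under 5 TPM, and PKLR, the paralogue of PKM in liver and red cells, had no row. GENCODE 29 annotates 5 processed pseudogenes of PKM, and 0 of them had a row.

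**Figure D4:**
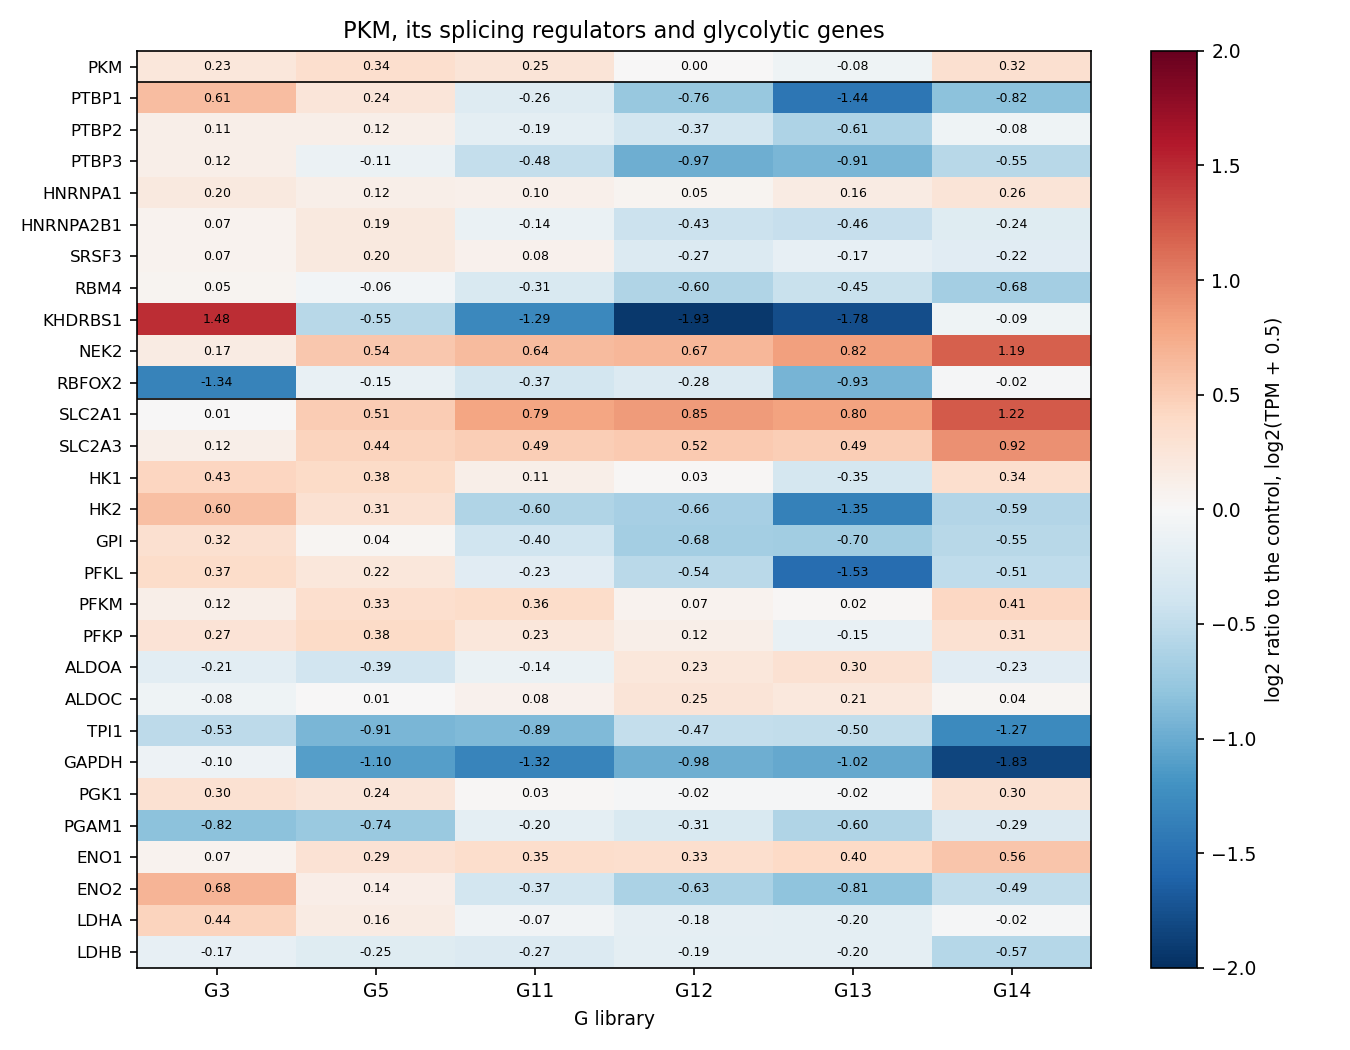
Each cell gives the log2 ratio of a G library (column) to the control, on log2(TPM + 0.5). The rows are PKM, the list of 10 regulators, which includes the targeted gene RBFOX2, and 18 genes of glycolysis. PKM stays between -0.08 and 0.34, GAPDH runs down to -1.83 in G14 and PTBP1 to -1.44 in G13.

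The genes whose levels over the 7 libraries were most like those of PKM were PPP1CC (phosphatase catalytic subunit), STT3A (oligosaccharyltransferase subunit), WDR1 (actin disassembly), EFTUD2 (spliceosomal GTPase) and GNPAT (ether lipid synthesis). Likeness was the root mean square difference of centred log2 levels, 0.0319 for PPP1CC to 0.0394 for GNPAT, against a median of 0.268 over 2061 genes. PPP1CC had 446 TPM in the control and 533, 580.2, 509, 441, 428 and 569 in the G libraries.

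The cells carried the markers of their label. Of 8 pluripotency markers 7 had rows, POU5F1 and NANOG among them and SOX2 not, and their summed level was 1596 to 2027 TPM. The single markers did not move together. POU5F1 was 915 TPM in the control and 377 (G14) to 588 (G3) in the G libraries, and NANOG 10.00 and 3.49 (G14) to 5.54 (G5). L1TD1, DPPA4 and TDGF1 were above the control in all 6 G libraries, as were 21.1% of the 7877 genes. L1TD1 was 18.2 TPM in the control and 24.9 (G12) to 41.0 (G11) in the G libraries. LIN28A and ZFP42 lay above the control in some G libraries and below it in others. Markers of muscle, where PKM1 is the usual form, summed to at most 5.48 TPM, the value of the control. That sum is TNNT2 and DES alone: MYOD1, MYOG, CKM and MYH7 had no row, which says only that the table lists no control read for them. Of 4 neural markers MAP2 alone had a row, at 1.12 to 3.03 TPM. Of the mesoderm and endoderm markers only TBXT and FOXA2 had rows, and both stayed at or below 0.0750 TPM. MIXL1, SOX17, GATA6, ALB and HBG1 had no row, which again says only that no control read is listed for them. In bulk RNA, fewer cells of a type and less RNA per cell cannot be told apart.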

How the data were processed

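Per the file headers, the authors deposited 1 table with counts of full-length reads and TPM, by isoform and library. Their TPM equalled reads scaled to the library total to within 0.0102. Totals were 16801851 (control) to 26678536 (G12) reads, without molecular identifiers. The submitters' processing notes name minimap2 2.17 and GRCh38; the software that assigned reads and filters are not given in the sources used here. Empty cells were read as 0. Every listed isoform had a control read. Levels were compared as log2(TPM + 0.5), which understates weakly expressed genes, among genes with a mean of at least 5 TPM. A count of 3 reads, the floor, was 0.112 to 0.179 TPM. Intervals are Wilson (shares) and Clopper-Pearson (ratios). Reference IDs were matched to GENCODE 29 by stem. Hashed IDs were read as Python tuple hashes of splice sites, which solved 341 of 353, an addition made after seeing the data; the design had kept hashed isoforms out of the PKM1 share. No genome was used, so motifs were searched in exons only, from transcript sequences. The scripts were tested on simulated data. Members and lists were chosen with earlier results of these data known. Named genes are PKM, its isoforms of at least 1% mean share, the lists, and the 5 genes most like PKM; other hashed isoforms were chosen after their values were seen. Alternatives were scaling, pseudocount, filters, reference and trend removal. Python 3.11.15, numpy 2.4.6, pandas 2.3.3 and scipy 1.17.1 were used.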

Additional observations from a re-analysis of the deposited data

Results flagged for a closer look

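The PKM total differed between G libraries in its direction against the control, at 126% of the control level in G5 and 94.9% in G13, each with a counting interval that leaves out 100%. The difference in direction was not there under other scalings: the log2 ratios in G5 and G13 were 0.30 and 0.08 with median-of-ratios scaling and 0.37 and 0.49 after removal of a trend on length and GC. The share of PKM reads that keep an intron beside the exon pair was 135% of the control share in G3 and 10.9% in G13. With 1 library each, neither difference between G libraries was tested.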

How the results depend on the processing

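No paired analysis was possible because each group has 1 library. The PKM log2 ratios in G3, G5, G11, G12, G13 and G14 were 0.21, 0.30, 0.29, 0.14, 0.08 and 0.43 with median-of-ratios scaling, which turned G13. That scaling shifted the median gene by 0.14 in G12, 0.16 in G13 and 0.11 in G14. After removal of a trend on length and GC they were 0.07, 0.37, 0.48, 0.36, 0.49 and 0.72, which also turned G13. Against the median of the other 6 libraries they were 0.11, 0.22, 0.13, -0.24, -0.31 and 0.20. A pseudocount of 1 TPM, reference IDs alone, or isoforms of at least 1 TPM left them within counting error. With decoded isoforms the PKM1 share was 1.32% in the control and 1.48%, 1.67%, 1.62%, 1.61%, 2.05% and 1.62% in the G libraries, since 99.5% of PKM1 reads have a hashed ID. No reference PKM1 isoform reaches 1 TPM, so that filter gave no PKM1 value. It lowered the hashed share to 4.02% in the control and 4.42%, 4.60%, 4.89%, 4.69%, 5.00% and 4.78%, and the usage distance of G3 to 0.00683. The control then had the lowest hashed share, in place of G3. With hashed isoforms pooled the distances were 0.00191, 0.000477, 0.00452, 0.00249, 0.00632 and 0.00260. Isoforms beginning within 25 bases of an annotated start held 96.2% of control reads and 95.9%, 95.6%, 95.3%, 95.5%, 95.2% and 95.4% of G reads. The start is the one listed for the isoform, and starts of single reads are not given. The regulator medians moved to -0.27 (G12), -0.38 (G13) and -0.04 (G14) with median-of-ratios scaling and to -0.03 (G5) and -0.30 (G14) without the trend. The glycolysis medians moved to 0.03 (G12), -0.04 (G13) and -0.01 (G14) with that scaling, to -0.02 (G3), 0.09 (G11), 0.08 (G12), 0.01 (G13) and 0.21 (G14) without the trend, and to 0.00 (G12) and 0.01 (G14) among genes of at least 20 TPM. Of 168 single-gene ratios in both lists, 10 changed sign with median-of-ratios scaling and 30 without the trend. Except where a reason is given, the cause was not tested. Few reads limit the precision of the rarest forms, such as the 11 control reads of the reference PKM1 transcript.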
